A study of Mus musculus with 9 samples.

Results

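Hair cells (HCs) of mice homozygous for the Dmdo allele of *Mir96* were compared with HCs of wild-type mice across all genes detected in them. The comparison is between 6 of the 9 libraries of the series. These came from homozygous mutant mice 43, 46 and 47 and from wild-type mice 44, 55 and 59. The heterozygous libraries were in the same fit and so entered the scaling and the estimate of spread. Genes were chosen by depth alone: of 43808 genes counted, 14397 were kept because 2 or 3 libraries of a genotype held no fewer than 20 reads each. Of these, 12488 reached that depth in both genotypes, 933 in wild-type libraries only and 976 in homozygous mutant libraries only. By the second-highest library of the better genotype, 68 genes lay just inside the limit, at 20 to 24 reads, and 78 just outside it, at 15 to 19 reads.

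The study asked which transcripts change in sensory cells when the seed of miR-96 is altered. Each library came from 1 newborn mouse (P1) and holds RNA of HCs pooled from the cochleae and vestibular organs, sorted as positive for both green fluorescent protein and the epithelial surface protein CD326. All mice carried the *Atoh1/nGFP* reporter, which marks HCs and also other cells that express *Atoh1*, and they descended from a cross of C3HeB/FeJ Dmdo mice with C57BL6 reporter mice. The groups were Mir96+/+ (wild-type), Mir96+/Dmdo (heterozygous) and Mir96Dmdo/Dmdo (homozygous mutant), with 3 mice each. Sorted cells of a pooled library do not show whether a lower value stands for fewer cells of a kind or for less RNA per cell, and these cannot be told apart here.

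MicroRNAs are short RNAs that lower the level of messenger RNAs to which they pair, mostly through matches between their seed, near the 5′ end, and the 3′ untranslated region (3′ UTR) of the target. miR-96 belongs to a cluster of 3 microRNAs made in sensory cells of the ear, eye and nose, and changes of its seed cause progressive hearing loss. A changed seed pairs with a different set of transcripts, so that both the targets lost and the matches gained are of interest. The mature sequence of mouse miR-96-5p from RefSeq lies on the minus strand of GRCm38.p6 at chr6:30169506-30169528. The Dmdo allele changes an A of the seed to a U, and the only A among seed bases 2 to 8, counted from the 5′ end, is base 7, a substitution written A7U. Both forms are shown because the matches searched for below differ between them only at this base. Capitals mark the seed.
miR-96-5p: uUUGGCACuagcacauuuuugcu
miR-96-5p with the Dmdo change: uUUGGCUCuagcacauuuuugcu

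In a 3′ UTR, the strongest class of match to the wild-type seed is GTGCCAAA (an 8mer, which pairs with seed bases 2 to 8 and has an A opposite base 1), and the match to the Dmdo seed is GAGCCAAA. Weaker classes are the 7mer-m8 (GTGCCAA or GAGCCAA), which lacks the final A, and the 7mer-A1 (TGCCAAA or AGCCAAA), which lacks the pairing of base 8. These were searched on the sense strand of the 3′ UTRs of protein-coding transcripts in GENCODE vM21. All 4 genes that were higher in homozygous mutant HCs and held a wild-type 8mer are shown first, each with the bases around the match, whose letters are in capitals. *Jpt2* holds its match at chr17:24943154-24943183 (minus strand), *Thap12* at chr7:98717092-98717121 (plus), *Morf4l2* at chrX:136733249-136733278 (minus) and *Arf2* at chr11:103984140-103984169 (plus), with another further on in the same 3′ UTR.
Jpt2: cttcacagtagGTGCCAAAaatgtcctcag
Thap12: tggcattaggaGTGCCAAAatacctctgct
Morf4l2: cctggttcctaGTGCCAAAggttcaactta
Arf2: ttctttccattGTGCCAAAgctagcagctc

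Of the 14 lower genes that held a Dmdo 8mer, 6 are shown. They are *Nefm* at chr14:68119730-68119759 (minus strand), *Pigt* at chr2:164508059-164508088 (plus), *Ppm1h* at chr10:122941576-122941605 (plus), which holds another such match, *Mia3* at chr1:183327180-183327209 (minus), *Dot1l* at chr10:80792772-80792801 (plus) and *Tomt* at chr7:101898673-101898702 (minus). Matches also occurred the other way and are not shown. Among the 3 lower genes with a wild-type 8mer were *Vangl2* and *Ttyh3*, of which *Ttyh3* also held a Dmdo 8mer. The 1 higher gene with a Dmdo 8mer was *Galk2*. A match is a string of letters in an annotated 3′ UTR, not a measured binding site.
Nefm: gagtaccaactGAGCCAAAaataataagtg
Pigt: gtggtagacttGAGCCAAAtcccttcccat
Ppm1h: acactgaataaGAGCCAAAcacaaagcctg
Mia3: tttgcatttttGAGCCAAAcaaaaatatat
Dot1l: aggtaaggctaGAGCCAAAccgtacttcct
Tomt: acaattgtactGAGCCAAAagtaaggccat

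Total counts were 19677015 to 28486252 per wild-type library and 18175317 to 30932531 per homozygous mutant library. Levels are given below as CPM, the counts of a gene relative to the library total, after scaling by the trimmed mean of M values, and in any group of 3 values the order is mice 44, 55 and 59 for wild-type and 43, 46 and 47 for homozygous mutant HCs. Wild-type 59 stood apart on the first and homozygous mutant 46 on the second principal component (33.8% and 26% of the variance), and these had the lowest quality weights, 0.519 and 0.573. All 3 homozygous mutant libraries had more reads of the Y-linked *Ddx3y* than of *Xist*, which silences an X chromosome in females, whereas wild-type 44 and 59 had more of *Xist*.

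Markers of HCs were present in every library. The reporter's own gene *Atoh1* stood at 189, 263 and 179 CPM in wild-type and at 260, 128 and 202 CPM in homozygous mutant HCs, and *Epcam*, which encodes CD326, at 367, 428 and 340 against 432, 330 and 273 CPM. In both genes the genotypes overlapped. Of 16 HC markers tested, 1 was lower, *Espn*, and none was higher. Over all genes tested, 0.924% were lower and 0.271% were higher, by the calls defined below. The summed CPM of these 16 was 19426 to 22833 in wild-type and 15723 to 20103 in homozygous mutant HCs. The summed level of 9 vestibular HC markers (2 lower, *Ocm* and *Spp1*) was 5831 to 6489 against 3737 to 4615 CPM, and that of 10 cochlear HC markers (3 lower, *Lbh*, *Strip2* and *Gata3*) was 1882 to 2504 against 1148 to 1359 CPM.

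Markers of other cells were present at unequal levels. All 8 blood markers, globins included, were listed at 0 reads in every library. Supporting cell markers (29 tested, none called) summed to 4201 to 8289 CPM in wild-type and 3274 to 5691 CPM in homozygous mutant HCs. Mesenchyme markers (12 tested, none called) summed to 209 to 336 CPM in wild-type HCs and to 198, 1272 and 322 CPM in homozygous mutants, where the high value was that of mouse 46. The 12 glia markers, of which 10 were tested, summed to 445 to 561 against 474 to 739 CPM. The part of these cells in the results below was not tested.

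*Mir96* itself (chr6:30169446-30169551, minus strand) was at 0.0898, 7.58 and 28.7 CPM in wild-type and at 0.0692, 0.275 and 0.0641 CPM in homozygous mutant HCs. Its genotypes overlapped, through wild-type 44, and its log2 fold change of -6.47 was not called by edgeR (SE 2.37, adjusted p = 0.246), while DESeq2 called it. These reads cover the gene's longer transcript and do not measure the mature microRNA, nor do the counts show which base a library carries at the mutated position. *Mir183* had no read in the libraries. *Mir182* had 4, 193 and 1 reads in wild-type and 4, 264 and 2 reads in homozygous mutant HCs, below the depth that was tested.

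Between homozygous mutant and wild-type HCs 172 genes differed (1.19% of those tested), of which 133 were lower in the mutants (0.924%) and 39 were higher (0.271%). A gene was called where its Benjamini-Hochberg adjusted p from edgeR was under 10% and the change exceeded 1.5-fold. The 2 genes of smallest p, and the only ones called in all 24 alternatives, were *Fcrlb*, which encodes a relative of the antibody receptors, and *Gm1113*, a protein-coding gene without a known role. *Fcrlb* was at 296, 243 and 464 CPM in wild-type and at 47.6, 22.8 and 40.4 CPM in homozygous mutant HCs. *Gm1113* was at 844, 1054 and 1174 against 129, 256 and 160 CPM. The genotypes lay far apart in both. *Nefm*, the medium neurofilament chain of the cytoskeleton, was at 1046, 1390 and 1439 CPM in wild-type and at 311, 486 and 454 CPM in homozygous mutant HCs. *Usp2*, an enzyme that removes ubiquitin from proteins, was at 96.3, 90.6 and 81.7 against 20.2, 14 and 19.4 CPM. *Ocm*, which encodes the HC calcium buffer oncomodulin, was at 143, 73.9 and 143 against 20.2, 7.54 and 20.2 CPM. None of these genes overlapped between the genotypes, where 8.95% of all genes tested were lower without overlap. They were picked because they were called, so the lack of overlap is no separate support for them.

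Among the genes higher in homozygous mutant HCs, *Enho*, which encodes a secreted peptide, was at 177, 83.6 and 85.6 CPM in wild-type and at 378, 386 and 357 CPM in homozygous mutant HCs. *Jpt2*, a microtubule-associated protein gene that holds a wild-type 8mer, was at 17.3, 14.6 and 12.5 against 57.7, 91.6 and 74.9 CPM, (log2 fold change 2.34, SE 0.44, adjusted p = 0.0293 in edgeR). *Ecrg4*, a secreted protein gene, was at 11.6, 10.2 and 15.4 against 82.6, 173 and 54.2 CPM. The lowest homozygous mutant value of each gene was above its highest wild-type value, as in 8.33% of all genes tested. These genes too were picked because they were called.

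**Figure D1:**
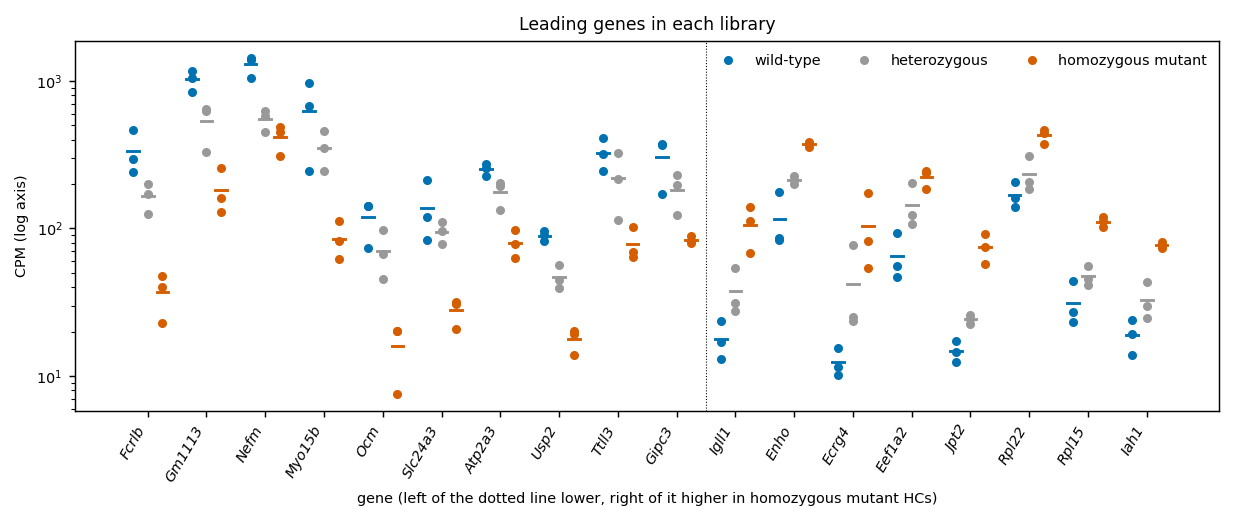
CPM on a log axis for 18 genes, the 10 lower and the 8 higher genes of smallest p, in each of the 9 libraries, with a point for each mouse and a bar for the mean of each genotype (3 mice each). In *Nefm* the wild-type mice lie between 1046 and 1439 and the mutants between 311 and 486, and in *Jpt2* the ranges are 12.5 to 17.3 for wild-type and 57.7 to 91.6 for mutant mice.

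The number of calls depended on single libraries and on the model. It was 440 lower and 272 higher without wild-type 44, 37 and 12 without wild-type 55, 16 and 5 without wild-type 59, 15 and 3 without homozygous mutant 43, 52 and 11 without 46, and 19 and 5 without 47. With the heterozygous libraries left out of the fit it was 95 and 15. With the pair that stood apart, wild-type 59 and homozygous mutant 46, left out together it was 20 and 3. The 18 lower and 3 higher genes called both with and without that pair include *Nefm*, *Ocm*, *Slc24a3*, *Atp2a3*, *Usp2*, *Ttll3*, *Pigt*, *Car7*, *Car12*, *Kif21b* and *Lbh* among the lower and *Igll1* and *Rpl15* among the higher. Of the 172 genes, 9 were called in each of the 6 fits that left out 1 wild-type or homozygous mutant library: *Fcrlb*, *Gm1113*, *Nefm*, *Myo15b*, *Ocm*, *Slc24a3*, *Atp2a3*, *Usp2* and *Ecrg4*. With a term for the *Xist* and *Ddx3y* reads only *Fcrlb* and *Gm1113* were called, and genotype and sex cannot be told apart in full, since no homozygous mutant library had more *Xist* than *Ddx3y*. DESeq2 called 615 lower genes (4.27%) and 350 higher genes (2.43%), with all 172 among them.

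Genes of the hair bundle, the organelle that detects sound and head movement, held several of the lower genes. Of 12 genes for the tip and ankle links between stereocilia 2 were lower and none was higher, against 0.924% and 0.271% of all genes. The share of lower genes was 3.27% in the highest of 5 equal bins of mean CPM and 2.33% in the highest of GC content. This and the other lists were chosen with earlier results of these data known. The median log2 fold change of the 12 was -0.64 against -0.00 over all genes tested. *Ush1c*, which encodes the scaffold harmonin at the tip links, was at 630, 1060 and 958 CPM in wild-type and at 384, 465 and 396 CPM in homozygous mutant HCs (log2 fold change -1.09, SE 0.26, adjusted p = 0.0795 in edgeR). *Pdzd7*, a scaffold of the ankle links, was at 226, 286 and 389 against 127, 53 and 166 CPM. The median stayed below 0 in all 24 alternatives (-0.88 to -0.34), though those that changed only the FDR or fold threshold leave any median unchanged.

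Of 27 genes of the stereocilia core, tips and tapers, 3 were lower (*Espn*, *Strc* and *Loxhd1*), against 0.924% of all genes tested. The median of the list was -0.14, below 0 in all 24 alternatives. In 8 of the 27 the homozygous mutant values all lay below the wild-type values, where the share over all genes tested was 8.95%, and the summed level of the list was 11410 to 16463 CPM in wild-type and 8881 to 10704 CPM in homozygous mutant HCs. *Espn*, which encodes the actin bundler espin, was at 1190, 1507 and 1604 against 554, 690 and 670 CPM. *Strc*, which encodes stereocilin, was at 131, 374 and 559 CPM in wild-type and at 60.7, 56.5 and 98.6 CPM in homozygous mutant HCs, and wild-type 44 was the closest to the mutants. Of 8 genes of the transduction channel, 2 were lower, 4 lay above 0, the median was 0.02 and the summed levels overlapped (1554 to 2878 against 1584 to 2475 CPM). These were *Tmc2*, a subunit of the channel in young HCs (88, 61.8 and 83.9 against 24.4, 15.9 and 33.8 CPM), and *Tomt*, which is needed to bring the channel subunits to the bundle (351, 201 and 446 against 142, 128 and 179 CPM). *Tomt* also holds one of the Dmdo 8mers shown above.

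Genes for moving calcium across membranes were mostly lower or below 0. Of 13 calcium pumps and sodium-calcium exchangers tested, 4 were lower and none was higher, against 0.924% and 0.271% of all genes tested. In 12 the log2 fold change was below 0, with a median of -0.56 over the list (-0.96 to -0.20 over the alternatives). *Atp2a3*, a pump of the endoplasmic reticulum, was at 255, 226 and 273 CPM in wild-type and at 78.8, 98.1 and 62.8 CPM in homozygous mutant HCs. *Atp2b2*, the pump that clears calcium from stereocilia, was at 315, 450 and 453 against 175, 145 and 204 CPM. *Atp2a1*, a pump best known from fast muscle, had low levels, 14, 10.7 and 24.7 against 0.138, 0.33 and 0.0321 CPM. *Slc24a3*, a potassium-dependent exchanger, completed the 4.

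The calcium buffers did not move as a group. Of 19 tested, *Ocm* and *Calb1* (364, 225 and 608 against 126, 39.4 and 133 CPM) were lower, 11 had a log2 fold change above 0, and the summed level of the list was 6739 to 11866 CPM in wild-type and 9872 to 11353 CPM in homozygous mutant HCs. The share of lower genes over all genes was 0.924%.

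Genes of neurotransmission by the ribbon synapse had lower medians. Of 17 genes of the active zone and of glutamate loading, 15 were below 0 and 2 were lower: *Rimbp2*, which couples calcium channels to release (130, 214 and 208 against 82.7, 51.4 and 79.5 CPM), and *Ppfia4*, a liprin scaffold (223, 355 and 314 against 96.7, 171 and 114 CPM). The share of lower genes over all genes tested was 0.924%. The median of the 17 was -0.59 (-0.80 to -0.33 over the alternatives). Of 31 genes for membrane fusion and vesicle proteins 24 were below 0 with a median of -0.62 (-0.70 to -0.44), though only the SNARE gene *Stx1a* was called (55.4, 93.4 and 144 against 34, 13.2 and 22.4 CPM). The summed level of that list was 2286 to 2618 CPM in wild-type and 1539 to 1727 CPM in homozygous mutant HCs, and so did not overlap.

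Scaffold proteins of the PSD-95, Shank, Homer, Magi and Gipc families organise receptors and channels under the membrane. Among 20 tested, 3 were lower and none was higher, where 0.924% of all genes tested were lower. *Gipc3*, a deafness gene, was at 172, 369 and 374 CPM in wild-type and at 80.1, 89.2 and 82.5 CPM in homozygous mutant HCs. *Shank2* was at 293, 318 and 383 against 80.1, 149 and 139 CPM (log2 fold change -1.43, SE 0.28, adjusted p = 0.0314 in edgeR). *Dlg4*, which encodes PSD-95, was at 124, 244 and 178 against 64.2, 84.8 and 87.1 CPM. In 9 of the 20 genes all homozygous mutant values lay below the wild-type values, against the same 8.95%. The median of -0.62 was -0.16 once GC content and gene length were corrected for.

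Genes of endocytosis and of ion channels were called against a share of 0.924% lower over all genes. *Dnm1*, the dynamin that pinches off vesicles, was the lower one of 29 genes of clathrin-mediated endocytosis (122, 267 and 328 against 70.1, 98.4 and 110 CPM), of which 23 were below 0, with a median of -0.34 (-0.47 to -0.22). The summed level of the list was 4014 to 4919 CPM in wild-type and 3279 to 3333 CPM in homozygous mutant HCs. The lower genes among 52 potassium channel subunits included *Kcna10*, a channel of HCs (249, 216 and 236 against 67.3, 99.9 and 102 CPM). Of 23 voltage-gated calcium and sodium channel genes only the sodium channel subunit *Scn3b* was lower (223, 223 and 326 against 113, 122 and 131 CPM), and the median was -0.59. *Syt2*, a calcium sensor of fast release, was the lower one of 12 synaptotagmins.

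Among 29 transcription factors and splicing regulators known from HCs there were 4 lower genes and no higher one, against 0.924% lower over all genes. *Skor2*, a corepressor, was at 154, 316 and 208 CPM in wild-type and at 71.7, 25.9 and 73.6 CPM in homozygous mutant HCs. *Srrm3* (83, 111 and 139 against 34.7, 31.4 and 56.2 CPM) and *Srrm4* (157, 254 and 313 against 92.8, 88.3 and 123 CPM) are related splicing factors of microexons, short exons used in neurons and HCs, and both were lower. *Gata3*, a factor of the cochlear sensory epithelium, was at 170, 223 and 288 against 71.9, 101 and 101 CPM. The median of this list was -0.41, and it was 0.07 with a term for the mouse numbers (47 or lower against 48 or higher), which include all homozygous mutants and wild-type 44 on the same side.

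With 0.924% of all genes tested lower, 1 call in a list says little about its family. Motor and microtubule genes were called 1 per family. These were the unconventional myosin gene *Myo15b* (244, 676 and 968 against 61.9, 82.5 and 112 CPM; 1 of 22 myosins, median -0.55), the kinesin *Kif21b* (139, 153 and 301 against 12.7, 49.5 and 10.9 CPM; 1 of 37 kinesins, median -0.29) and the tubulin glycine ligase *Ttll3* (245, 322 and 410 against 69, 103 and 63.7 CPM; 1 of 24 tubulins and their modifying enzymes). *Nefm* was the lower one of 6 neurofilament and related genes. Of 48 genes of cilia transport and axonemal dynein none was called. The smallest p of that list was that of *Ift43*, a subunit of the transport particle, at 75.3, 48.2 and 42.9 CPM in wild-type and 120, 110 and 140 CPM in homozygous mutant HCs (adjusted p = 0.12 in edgeR).

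The genes that link the nucleus to the cytoskeleton had the lowest median of the lists with 8 or more genes tested, -0.92 over 9 genes (-1.10 to -0.34 over the alternatives), with no gene called. *Syne4*, which holds the nucleus of HCs in place and is a deafness gene, was at 351, 320 and 522 CPM in wild-type and at 174, 198 and 231 CPM in homozygous mutant HCs (adjusted p = 0.122 from edgeR). Its partner *Sun1* was at 142, 101 and 222 against 78, 38.3 and 97 CPM (adjusted p = 0.191). The median was -0.34 with wild-type 59 and homozygous mutant 46 left out.

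Metabolic and regulatory families held a few lower genes, where 0.924% of all genes tested were lower. Of 8 carbonic anhydrases, which interconvert carbon dioxide and bicarbonate, *Car7* (150, 142 and 49.3 against 17.3, 17.9 and 30.8 CPM) and *Car12* (63.4, 98.4 and 87.1 against 12.9, 39.4 and 16.2 CPM) were lower. *Srebf2*, the regulator of cholesterol synthesis, was lower (407, 586 and 535 against 211, 238 and 227 CPM), while the list of 30 cholesterol and fatty acid genes to which it belongs had a median of -0.08 and no other call. *Dot1l*, a histone methyltransferase that holds a Dmdo 8mer, was the lower one of 44 histone methylation genes (116, 261 and 251 against 60.9, 79.5 and 72.6 CPM). *Pigt*, of the complex that attaches GPI anchors and also the holder of a Dmdo 8mer, was the lower one of 30 genes of that pathway (224, 348 and 207 against 95.8, 90.9 and 66.3 CPM), whose median was -0.03.

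Further families with a single lower gene were the unfolded protein response (*Creld2*, 1 of 20), the proton pump of acidic organelles (*Atp6v0a1*, 1 of 21), planar and apical polarity (*Vangl2*, 1 of 27) and the ubiquitin-specific proteases (*Usp2*, 1 of 44). With 0.924% of all genes lower and 71 lists examined, a single call in lists of this size is no result about the family. Secreted proteins also held lower genes. *Bmp7*, a growth factor, was at 124, 101 and 115 CPM in wild-type and at 50.3, 24.9 and 51.8 CPM in homozygous mutant HCs, and was the lower one of 50 secreted ligands. In the matrix over the sensory epithelia, *Spp1* (1879, 1487 and 1578 against 489, 489 and 708 CPM) and *Matn4* (156, 330 and 304 against 76.1, 59.1 and 31.8 CPM) were lower among 12 genes.

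Of 80 deafness genes tested 9 were lower and none was higher: *Gipc3*, *Espn*, *Strc*, *Loxhd1*, *Atp2b2*, *Ush1c*, *Tmprss3*, *Tomt* and *Pdzd7*. *Tmprss3*, a protease needed for the survival of HCs, was at 678, 487 and 734 CPM in wild-type and at 307, 257 and 386 CPM in homozygous mutant HCs. Of the 80, 50 were below 0, with a median of -0.24 (-0.31 to -0.10 over the alternatives). The calls of this list lie above the 0.924% of all genes, but the genes called were also abundant, and 94 of the 133 lower genes were among the 2879 genes with the highest mean CPM.

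Genes of translation were on the whole above 0 in homozygous mutant HCs. Of 80 cytosolic ribosomal protein genes 2 were higher, against 0.271% of all genes tested. On the log2 scale 72 of the 80 lay above 0, and the median was 0.79. *Rpl22* was at 206, 140 and 160 CPM in wild-type and at 446, 371 and 466 CPM in homozygous mutant HCs (log2 fold change 1.34, SE 0.26, adjusted p = 0.0314 in edgeR). *Rpl15*, which holds a match to the wild-type seed, was at 23.4, 27.1 and 44 against 112, 120 and 102 CPM. At an unadjusted p under 0.05, 27 of the 80 genes were above 0 and none was below, where the shares of all genes at that p were 5.38% above and 8.12% below 0.

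The wild-type libraries differed among themselves in these genes. The summed CPM of the ribosomal list was 14234, 5870 and 6764 in wild-type and 16450, 14486 and 14714 in homozygous mutant HCs. Wild-type 44 thus lay next to the homozygous mutants. The median was 1.25 without that library and 0.31 with the term for the mouse numbers. The elongation factor gene *Eef1a2* was the higher one of 52 translation factors tested (46.8, 92.8 and 55.9 against 239, 246 and 184 CPM), whose median was 0.31. The summed level of all 53 members of that list did not overlap between the genotypes (12679 to 16165 against 18609 to 20020 CPM). *Gas5*, a host of small nucleolar RNAs (58.3, 105 and 96 against 191, 155 and 270 CPM), was the higher one of 15 such hosts (median 0.72; -0.19 in the lowest alternative).

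Of the 39 higher genes, 8 were pseudogenes, which are short copies of other genes' transcripts and can share reads with them. They include *Gm15500* (410, 265 and 308 CPM in wild-type against 860, 714 and 695 CPM in homozygous mutant HCs), *Rpl7-ps7* (17.6, 14.8 and 14.1 against 47.2, 77.7 and 50.8 CPM), *Rpl39-ps* and *Rps7-ps3*. Their counts are uncertain, since reads of a ribosomal gene and of its copy may have been divided between them. None of the 133 lower genes was a pseudogene, against 963 of 14397 genes tested.

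Genes of energy metabolism and protein breakdown also had medians above 0. Of 77 nuclear genes of oxidative phosphorylation 63 were above 0, with a median of 0.38, and *Ndufs4*, a subunit of complex I, was higher (53, 26.5 and 15.8 against 105, 88.8 and 108 CPM). The summed level of all 87 members of the list overlapped between the genotypes (8024 to 15109 against 13167 to 14654 CPM). The median of the 77 was 0.05 with the term for the mouse numbers. All 7 mitochondrially encoded genes tested were above 0 and none was called, and their median of 0.73 turned to -0.09 once GC content and gene length were corrected for. *mt-Co1*, a subunit of cytochrome oxidase, was at 2188, 2270 and 4347 CPM in wild-type and 5099, 5478 and 4500 CPM in homozygous mutant HCs. *mt-Cytb* was at 1871, 1879 and 3601 against 4189, 4440 and 3854 CPM (log2 fold change 0.76, adjusted p = 0.237 from edgeR), and its own value turned to -0.09 in the same way. Of 45 proteasome genes 39 were above 0, with a median of 0.42 and none called. *Psmb1*, a core subunit, was at 205, 138 and 144 against 288, 294 and 271 CPM (adjusted p = 0.185).

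**Figure D2:**
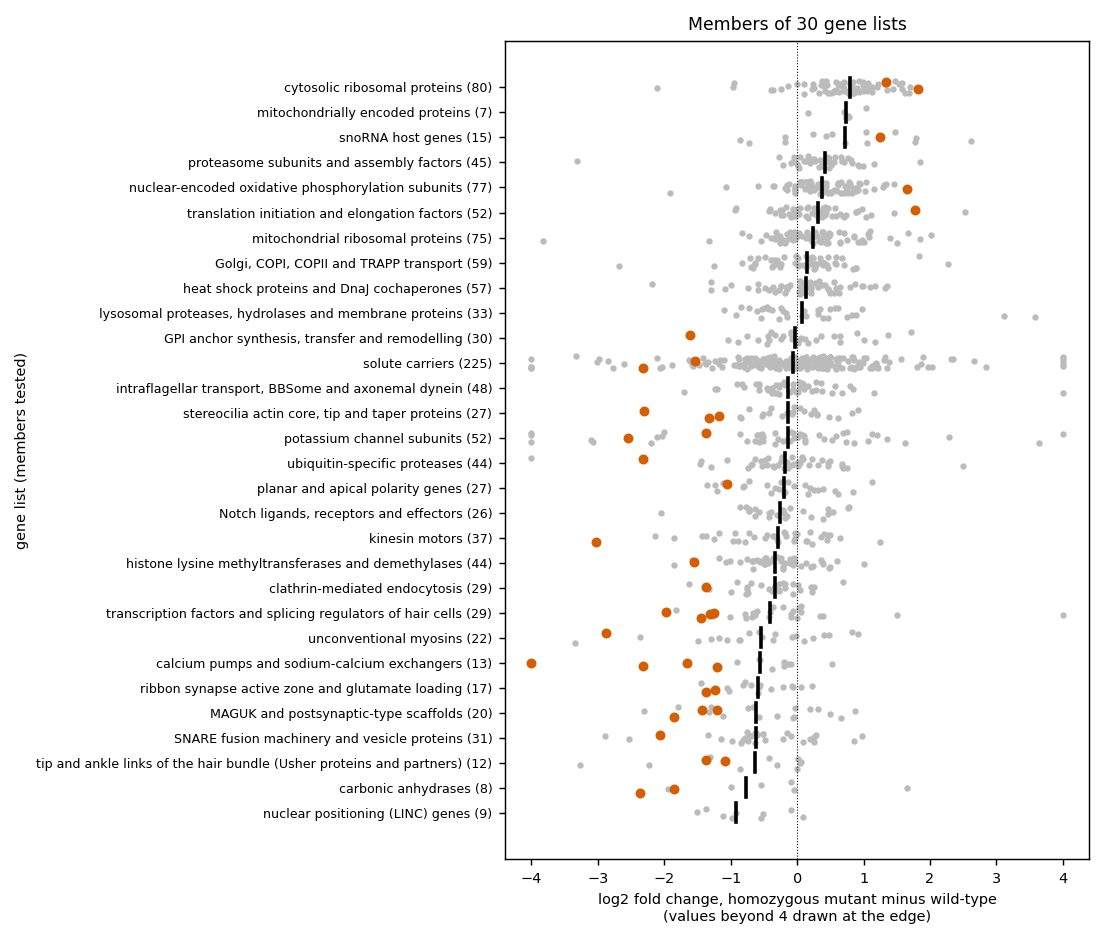
The log2 fold change between homozygous mutant and wild-type HCs for each member tested of 30 gene lists, with called genes in orange, other genes in grey and a black bar at the median. The median of the ribosomal protein genes lies to the right of 0, at 0.79, with 8 of 80 genes to the left, while the medians of the scaffold, SNARE and nuclear positioning genes lie to the left, at -0.62, -0.62 and -0.92, with 5 of 20, 7 of 31 and 1 of 9 genes to the right.

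Other higher genes belonged to no common family. *Igll1*, a component of the pre-B cell receptor, was at 23.7, 17.1 and 13.1 CPM in wild-type and at 139, 67.8 and 112 CPM in homozygous mutant HCs. *Htr3a*, a serotonin-gated ion channel, was at 17.1, 12.7 and 10.1 against 71.4, 25.1 and 94.6 CPM, and *Pkia*, an inhibitor of protein kinase A, at 19.4, 16.7 and 13.5 against 69.9, 92.3 and 41.2 CPM. *Iah1*, an esterase gene, was at 23.8, 19.3 and 14 against 74.1, 81.3 and 75.8 CPM. *Chn2*, a regulator of the GTPase Rac, was at 71.6, 46.2 and 29.9 against 107, 197 and 123 CPM, while *Snrpd3*, a core protein of the spliceosome, was at 74.7, 67.5 and 90.1 against 167, 175 and 165 CPM. These 6 genes did not overlap between the genotypes, where the share of all genes that were higher without overlap was 8.33%. They were picked because they were called, so the lack of overlap is no separate support for them.

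The matches to the 2 forms of the seed were spread unequally over the fold changes. Of 30 higher genes with an annotated 3′ UTR 9 held a match of 7 or 8 bases to the wild-type seed (30%), against 15 of 128 lower genes (11.7%) and 2641 of 12514 genes tested (21.1%). Matches to the Dmdo seed showed the opposite order, in 3 of 30 higher genes (10%), 44 of 128 lower genes (34.4%) and 2615 of 12514 genes (20.9%). The median length of the longest 3′ UTR was 1317 bases in lower, 1002 bases in higher and 1232 bases in all genes. The higher genes with a wild-type match were *Jpt2*, *Rpl15*, *Iah1*, *Thap12*, *Fam136a*, *Smo*, *Osbpl2*, *Morf4l2* and *Arf2*. The lower genes with a Dmdo match include *Nefm*, *Usp2*, *Pigt*, *Kif21b*, *Calb1*, *Rimbp2*, *Srrm3*, *Srrm4*, *Scn3b*, *Dlg4* and *Bmp7*. Of these, *Calb1*, *Rimbp2*, *Srrm3* and *Srrm4* also held a match to the wild-type seed. *Kif21b*, *Calb1* and *Srrm3* matched the Dmdo seed only through the weaker 7mer-A1, as did *Iah1* and *Fam136a* the wild-type seed.

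The same split was seen over all genes, called or not. The 443 genes with a Dmdo 8mer had a median log2 fold change of -0.33 against -0.00 for the 9899 genes with no Dmdo match, and 66.4% of them were below 0. Of the 443, 14 were lower (3.16%) and 1 was higher (0.226%), against 0.849% and 0.273% of the genes with no Dmdo match. In 18.5% of the 443 the homozygous mutant values were all below the wild-type values, against 8.85% of the genes with no Dmdo match. The 757 genes with a Dmdo 7mer-m8 alone had a median of -0.18. The 1201 with a 7mer-A1 alone, which holds the changed base but not the pairing of base 8, had 0.04. The 214 genes with both of these apart and no 8mer had -0.28. The 415 genes with a wild-type 8mer had a median of 0.16 against -0.04 for the 9873 genes with no wild-type match, and 57.3% were above 0. Of the 415, 3 were lower (0.723%) and 4 were higher (0.964%), against 1.14% and 0.213% of the genes with no wild-type match. The median was 0.06 for the wild-type 7mer-m8 alone (722 genes), -0.06 for the 7mer-A1 alone (1316 genes) and 0.09 for both apart (188 genes). Only 34 genes held both 8mers.

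Each library was then taken alone, as the median log2 level of genes with a Dmdo 8mer, relative to each gene's mean over libraries, minus that of genes with no such match. It was 0.050, 0.207 and 0.260 in wild-type HCs and -0.197, -0.089 and -0.164 in homozygous mutant HCs. The heterozygous libraries 45, 48 and 51 lay between, at -0.080, 0.000 and 0.023, and no value of a genotype overlapped with those of another. For the Dmdo 7mer-m8 the wild-type values were 0.067, 0.158 and 0.123 and the homozygous mutant values -0.108, -0.063 and -0.134, with the heterozygous libraries at -0.047, 0.030 and 0.011. For the wild-type 8mer the values were -0.260, -0.006 and 0.018 in wild-type and 0.058, 0.174 and 0.058 in homozygous mutant HCs, so that these genotypes did not overlap either, with the heterozygous libraries at -0.070, 0.057 and 0.006. Wild-type and homozygous mutant values overlapped for the wild-type 7mer-m8 and for the 7mer-A1 of both seeds. With 3 mice against 3, an exact permutation test of such a value cannot give a p under 0.1, and none was run.

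**Figure D3:**
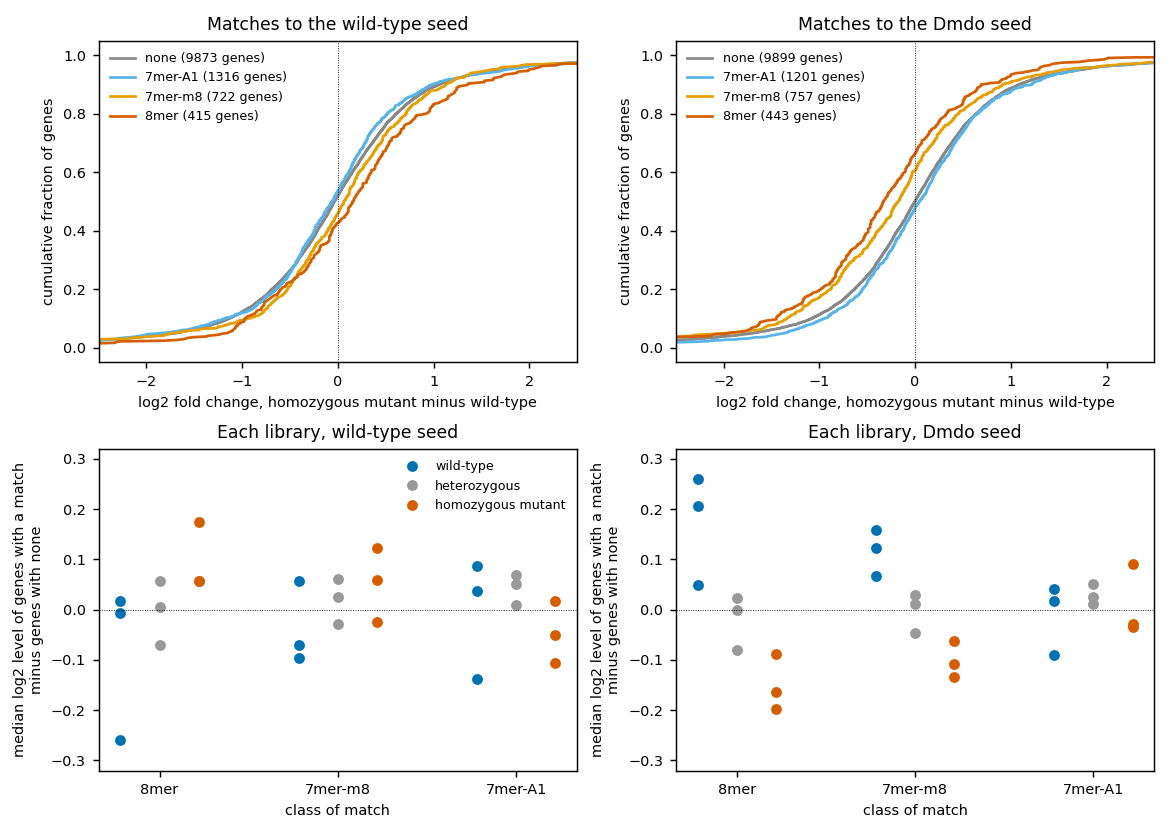
Top, the cumulative fraction of genes by log2 fold change between homozygous mutant and wild-type HCs, for genes with an 8mer, 7mer-m8 or 7mer-A1 match to the wild-type seed (left) or the Dmdo seed (right) and for genes with none. Genes with both 7mer classes apart and no 8mer are not drawn. Bottom, for each library, the median log2 level of genes with a match minus that of genes with none: for the Dmdo 8mer the range is 0.050 to 0.260 in wild-type and -0.197 to -0.089 in homozygous mutant mice.

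The shift of the Dmdo 8mer genes against genes with no Dmdo match was -0.33, and it ranged from -0.39 to -0.21 over the 24 alternatives. It was -0.28 after the correction of GC content and length, -0.32 with the *Xist* and *Ddx3y* term, -0.21 with the term for the mouse numbers and -0.35 with wild-type 59 and homozygous mutant 46 left out. That of the wild-type 8mer genes was 0.20, ranging from 0.10 to 0.30. Over 5 bins of GC content, from the lowest to the highest, the Dmdo 8mer genes had medians of -0.05, -0.29, -0.22, -0.61 and -0.87 and the genes with no Dmdo match 0.24, 0.11, 0.00, -0.07 and -0.29. The 8mer genes thus had the lower median in each bin, and their median GC content was 48.6% against 50.4% for the others. Genes with an 8mer had longer 3′ UTRs (median of the longest 2736 bases for the wild-type and 2698 bases for the Dmdo 8mer) than genes with no match (985 and 986 bases), for both seeds alike.

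Among 10 genes tested that have published support as miR-96 targets, none was called and the median was -0.11. *Adcy6*, an adenylate cyclase, had the smallest p, with 46.1, 110 and 134 CPM in wild-type and 43.4, 25.1 and 62.5 CPM in homozygous mutant HCs (adjusted p = 0.263 from edgeR), and its genotypes overlapped.

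The fold changes moved with properties of the genes. The median log2 fold change fell from 0.23 in the lowest of 5 equal bins of GC content (31% to 44.1%) to -0.31 in the highest (55.6% to 75.5%), and 67 of the 133 lower genes were in the highest bin against 5 in the lowest. By exon length, the median was 0.33 in the shortest bin (up to 2064 bases) and -0.10 in the longest, which held 37 lower genes and no higher gene. Lower genes had a median GC content of 56% and a median exon length of 5311 bases, higher genes 48% and 2631 bases, and all genes 49.9% and 4196 bases. With GC content and length corrected in each library, 36 lower and 10 higher genes were called, of which 31 and 9 were among those called without it. Of the 13 called genes in the lists of the hair bundle and of calcium pumps and buffers, 4 kept their call (*Strc*, *Ocm*, *Slc24a3* and *Calb1*, with log2 fold changes of -3.64 to -1.91 after the correction) and 9 lost it (*Espn*, *Loxhd1*, *Ush1c*, *Pdzd7*, *Tmc2*, *Tomt*, *Atp2a1*, *Atp2a3* and *Atp2b2*). All 13 were still below 0. Among the 9, *Espn* had the log2 fold change nearest to 0, -0.48 against -1.17 without the correction. What share of the group differences belongs to these properties was not tested.

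**Figure D4:**
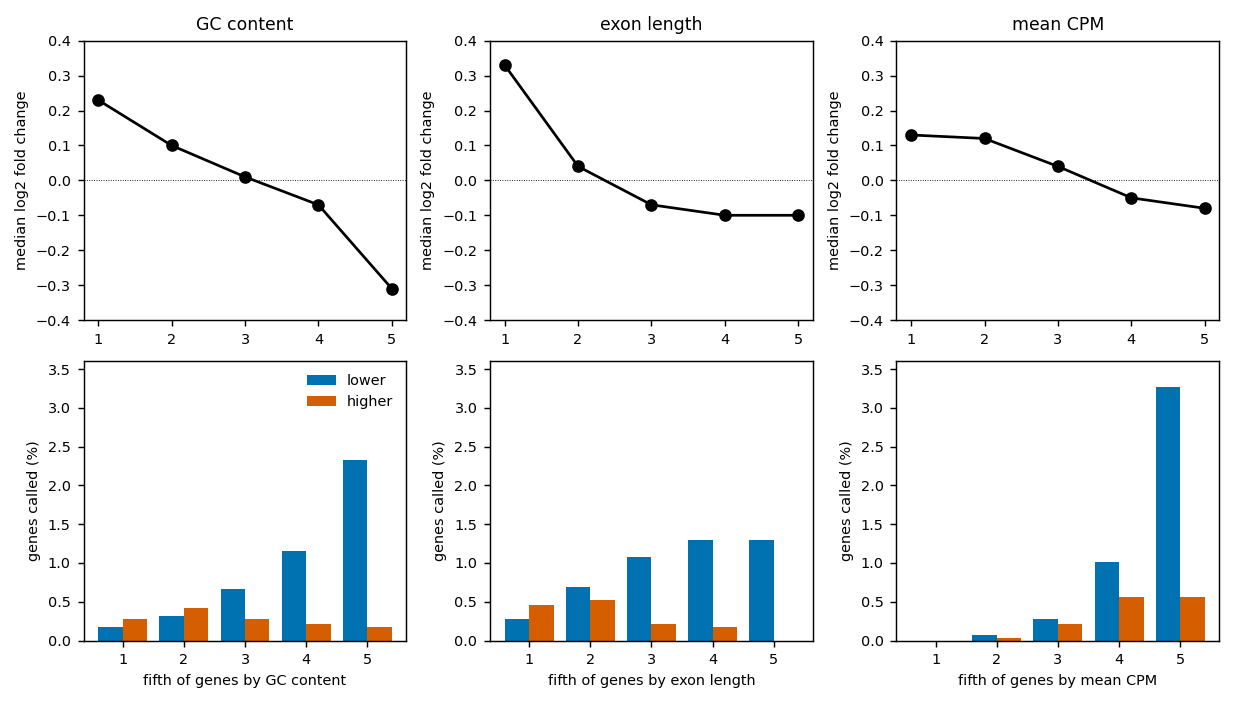
Median log2 fold change between homozygous mutant and wild-type HCs (top) and percent of genes called lower or higher (bottom) in 5 equal bins of the genes tested, ordered by GC content, exon length and mean CPM. The median falls from 0.23 to -0.31 across GC content and from 0.33 to -0.10 across exon length, and calls are most frequent among abundant genes.

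Because the homozygous mutants are homozygous for a C3HeB/FeJ allele in mice of mixed background, genes near *Mir96* were also examined. Within 10 Mb of it, 96 genes were tested, of which 1 was lower (1.04%) and 2 were higher (2.08%). Over all genes tested the shares were 0.924% and 0.271%. *Strip2*, listed among cochlear HC markers, was at 159, 88.5 and 242 CPM in wild-type and at 43.2, 4.4 and 31.3 CPM in homozygous mutant HCs (log2 fold change -2.63, SE 0.58, adjusted p = 0.0723 in edgeR). It lies 0.23 Mb from *Mir96*. *Smo*, the transducer of Hedgehog signals, lies 0.42 Mb away and was at 121, 73.6 and 73 against 200, 160 and 224 CPM. *Smo* also holds a match to the wild-type seed. *Ptn*, which encodes the growth factor pleiotrophin and lies 6.59 Mb away, was at 427, 378 and 259 against 738, 981 and 494 CPM. The rest of chromosome 6 had 3 lower and 4 higher genes among 629 tested. On the whole chromosome 4 of 725 genes tested were lower (0.552%) and 6 were higher (0.828%). The latter was the largest share of higher genes on any chromosome. Strain differences near the allele and the allele itself cannot be told apart in these libraries.

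**Figure D5:**
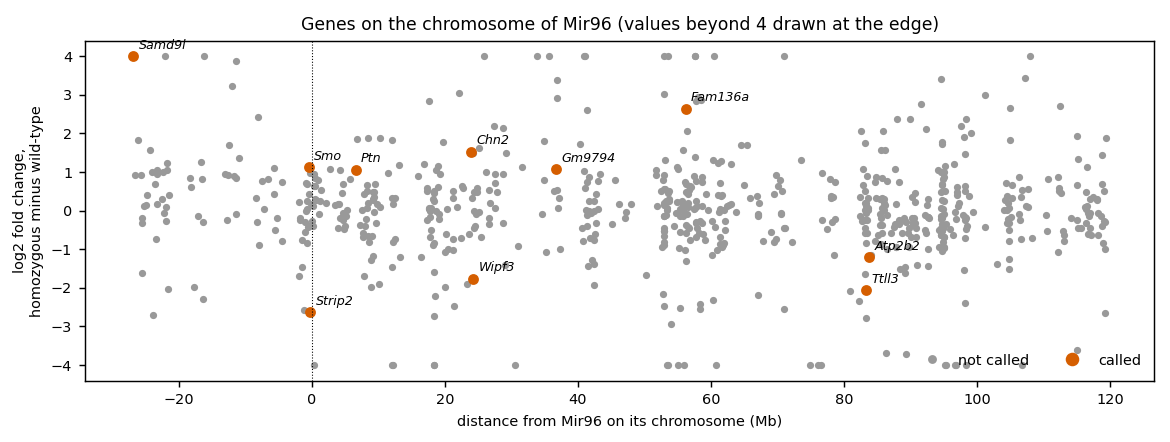
The log2 fold change between homozygous mutant and wild-type HCs for the genes tested on chromosome 6, against their distance from *Mir96* in Mb, with called genes named in orange. *Strip2* (-2.63) and *Smo* (1.13) lie within 1 Mb of it, and the other called genes are spread along the chromosome.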

How the data were processed

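RNA of HCs was sequenced in 9 libraries, 3 per genotype and 1 per mouse. By the submitters' processing notes, the authors used HISAT2 2.0.4 on GRCm38 and HTSeq, and they deposited raw counts per gene without normalization. Whether HTSeq used strand is not stated in the sources used, and reads of overlapping antisense genes may be shared. Each library was grouped by its label. Per the methods, RNA of 1 wild-type and 1 mutant mouse was less intact, and the mice are not named.

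Genes that reached 20 reads in 2 of the 3 wild-type or homozygous mutant libraries were tested with the quasi-likelihood test of edgeR 4.0.16 (robust dispersion, TMM normalization, all 9 libraries in 1 fit), and called at a Benjamini-Hochberg false discovery rate under 10% over all genes tested and a fold change above 1.5. Adjusted p-values are from this test. Per-library levels are CPM on the same scaling, and fold changes are log2 of homozygous mutant over wild-type. No pair of replicates agreed within sampling noise (chi-square per gene 105.4 to 251.1). The test was checked on simulated counts.

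The members and the 71 gene lists were chosen with earlier results of these data known. Named were the 15 called genes of smallest p in each direction, called members of each list (up to 5 by p, or the 3 of smallest p where none was called), *Mir96* and its cluster, sort and sex transcripts, called genes within 10 Mb of *Mir96* and called genes with a seed match. A called gene that this rule would name is not reported here. Lists are described by counts and medians, with no set test. Summed levels cover all members of a list, tested or not. Gene classes, GC content, exon lengths and 3′ UTRs (at least 30 bases) came from GENCODE vM21 on GRCm38, which matched 14395 of the 14397 genes, and miR-96 from RefSeq. A gene with an 8mer was put in that class whatever else it held. Genes with both 7mer classes apart and no 8mer formed a class of their own.

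Alternatives used DESeq2 1.42.0, limma-voom (limma 3.58.1) with quality weights, other normalizations, filters and thresholds, protein-coding genes only, the 2 genotypes alone, a GC content and length correction, 1 surrogate variable (sva 3.50.0), terms for the sex transcripts and mouse numbers, and libraries left out. R 4.3.3, Python 3.11.15 and pandas 2.3.3 were used.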

Additional observations from a re-analysis of the deposited data

How the results depend on the processing

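Against 133 lower and 39 higher genes, DESeq2 called 615 and 350, no low-count filter 404 and 172, FDR under 5% 33 and 8, the GC content and length correction 36 and 10, 1 surrogate variable 32 and 9, the *Xist* and *Ddx3y* term 2 and 0 (edgeR; the cause was not tested), the mouse number term 18 and 3, and both wild-type 59 and homozygous mutant 46 left out 20 and 3. The fit by limma-voom called 197 and 133, and that of wild-type and homozygous mutant libraries only called 95 and 15. Leaving out 1 of the 9 libraries gave 15 to 440 lower and 3 to 272 higher genes, with 61 and 10 without heterozygous 51 and 18 higher without heterozygous 48. *Mir96* reversed to 1.05 with the mouse number term, *mt-Cytb* to -0.09 with the GC content and length correction, *Epcam* to 0.01 without homozygous mutant 47, and *Atoh1* to 0.14 with the mouse number term, 0.11 without wild-type 55, 0.12 without homozygous mutant 46 and 0.03 with wild-type 59 and homozygous mutant 46 both left out. With 1 library left out *Atoh1* ranged from -0.35 to 0.12 and *Epcam* from -0.33 to 0.01. None of these was called in any of those fits. Of 1915 fold changes of 80 named genes under the alternatives, 618 lost the call and 21 gained it. Of 144 differences between genes with and without a seed match, 139 moved by less than 1 SD between replicates, as did 1443 of 1560 list medians. These totals include the alternatives with FDR under 5% and with no fold threshold. Those change only which genes are called, so no median could move in them. No paired analysis by litter was possible, because the labels do not give the litter of each mouse. The study describes its wild-type controls as littermates.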

Other observations

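Several families had no called gene and medians near that of all genes tested. These were the lysosome (33 genes tested, median log2 fold change 0.07), Golgi and coat proteins (59, 0.15), Rab GTPases (52, 0.00), aminoacyl-tRNA synthetases (38, 0.06), chromatin remodellers (47, -0.00), splicing factors (29, -0.09), heat shock proteins and chaperones (57, 0.14) and glycolysis (19, -0.12). The median of the Golgi and coat proteins, though small, was above 0 in all 24 alternatives (0.03 to 0.24). Genes of the Notch pathway, which sets the balance of HCs and supporting cells, had a median of -0.26 over 26 genes, and their summed level was 3646 to 4542 CPM in wild-type and 3041 to 3389 CPM in homozygous mutant HCs. Of 60 cadherins and protocadherins none was called and the median was -0.27. The 75 mitochondrial ribosomal protein genes had no call and a median of 0.24. With the term for the mouse numbers these medians turned, to 0.02 for the Notch genes, 0.35 for the cadherins and -0.11 for the mitochondrial ribosome.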
